A study of Mus musculus with 12 samples.

Results

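Chemokines and their receptors were followed across 12 YUMM1.7 melanoma tumors of mice. They were taken from the expression table by symbol, as every gene whose symbol starts with Ccl, Cxcl, Ccr or Cxcr followed by a digit, together with Cx3cl1 and Cx3cr1. The rule found 56 of the 23940 genes, 38 of them ligands and 18 receptors. Of these, 26 (19 ligands and 7 receptors) averaged 1 FPKM or more across the 12 tumors and were tested, and the other 30 are described as low. FPKM is defined as the number of fragments per kilobase of transcript, scaled to the mapped total of each library. Levels of different genes can therefore be set beside each other.

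All 12 tumors were grown in immunodeficient mice from YUMM1.7, a melanoma line of mouse origin that carries mutant Braf. The 4 groups held 3 tumors each: control tumors given vehicle, control tumors given a BRAF inhibitor (BRAFi), tumors that overexpress the PD-1 ligand PD-L2 given vehicle, and PD-L2 tumors given BRAFi. Sample labels give the hosts as NSG mice and the series design as NOD/SCID mice, and both strains lack T and B cells and NSG mice also lack NK cells. The design speaks of resistance to BRAFi while the labels record only the treatment, and neither names the drug, its dose or the construct behind PD-L2. The labels name separate tumors within a group and do not say whether they came from separate mice or cultures, so the p-values measure the spread between these tumors.

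Chemokines are small secreted proteins that guide leukocytes along gradients by binding receptors coupled to Gi proteins on the cell surface. Most receptors bind several ligands and most ligands several receptors, so the system is usually described by axes such as Ccr2 with its monocyte-attracting ligands or Cxcr3 with its interferon-induced ligands. In tumors, ligands are made by cancer cells, fibroblasts and macrophages, and several receptors mark the macrophages and dendritic cells that enter from the blood.

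The introduced gene Pdcd1lg2 was at 0.133 to 3.54 FPKM in the 6 control tumors and at 20.8 to 176 FPKM in the 6 PD-L2 tumors, so every library followed its label. FPKM sums were 499845 to 648254, with 16269 to 17469 genes above 0, and read depth is unknown. PD-L2 BRAFi tumor 2 stood apart: the microRNA gene Mir2137 took 16.13% of its FPKM sum, while the other 11 libraries listed it at 0, and its Pdcd1lg2 level was the lowest of the PD-L2 tumors. Calls of members that changed when this tumor was left out, and some other values, are therefore also given without it. Of the melanocyte markers, Mlana, Dct, Tyrp1 and Slc45a2 were at or near 0 throughout and Tyr had a mean of 0.885 FPKM, while Mitf had a mean of 3.95 FPKM. Sox10 was at 24.9 FPKM in control BRAFi tumor 1, at 6.66 FPKM in control BRAFi tumor 3 and at 0.0307 to 1.38 FPKM in the other 10 libraries. Of the lymphocyte markers, Cd3g was listed at 0 in all 12 libraries and Cd3e in 11, while Cd4 and Cd79b had means of 2.62 and 1.68 FPKM.

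The chemokine with the highest mean level was Ccl8, at 127 FPKM over the 12 tumors, which placed it at rank 609 of all genes. Next came the stromal chemokine Cxcl12 at 98.8, the monocyte attractants Ccl12 at 78.4 and Ccl2 at 58.9, and the interferon-induced Cxcl10 at 53.0 FPKM. Cx3cl1, Cxcl16, Ccl11, Cxcl14, Ccl7, Ccl6, Ccl5, Cxcl13 and Ccl9 had means between 44.9 and 16.4 FPKM. The highest receptors were Cxcr4 at 24.5, Ccr1 at 20.9 and Cx3cr1 at 20.5 FPKM. Below a mean of 5.06 FPKM, the level of Ccl4, lay Ccr2, Cxcr3, Ccl3, Ccl25, Cxcl1, Cxcr2 and Ccl27a, with means from 3.86 down to 1.23 FPKM. The tumors within a group often differed more than neighbours in this order, as Ccl6 shows with 12.5 to 132 FPKM among the PD-L2 vehicle tumors.

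**Figure D1:**
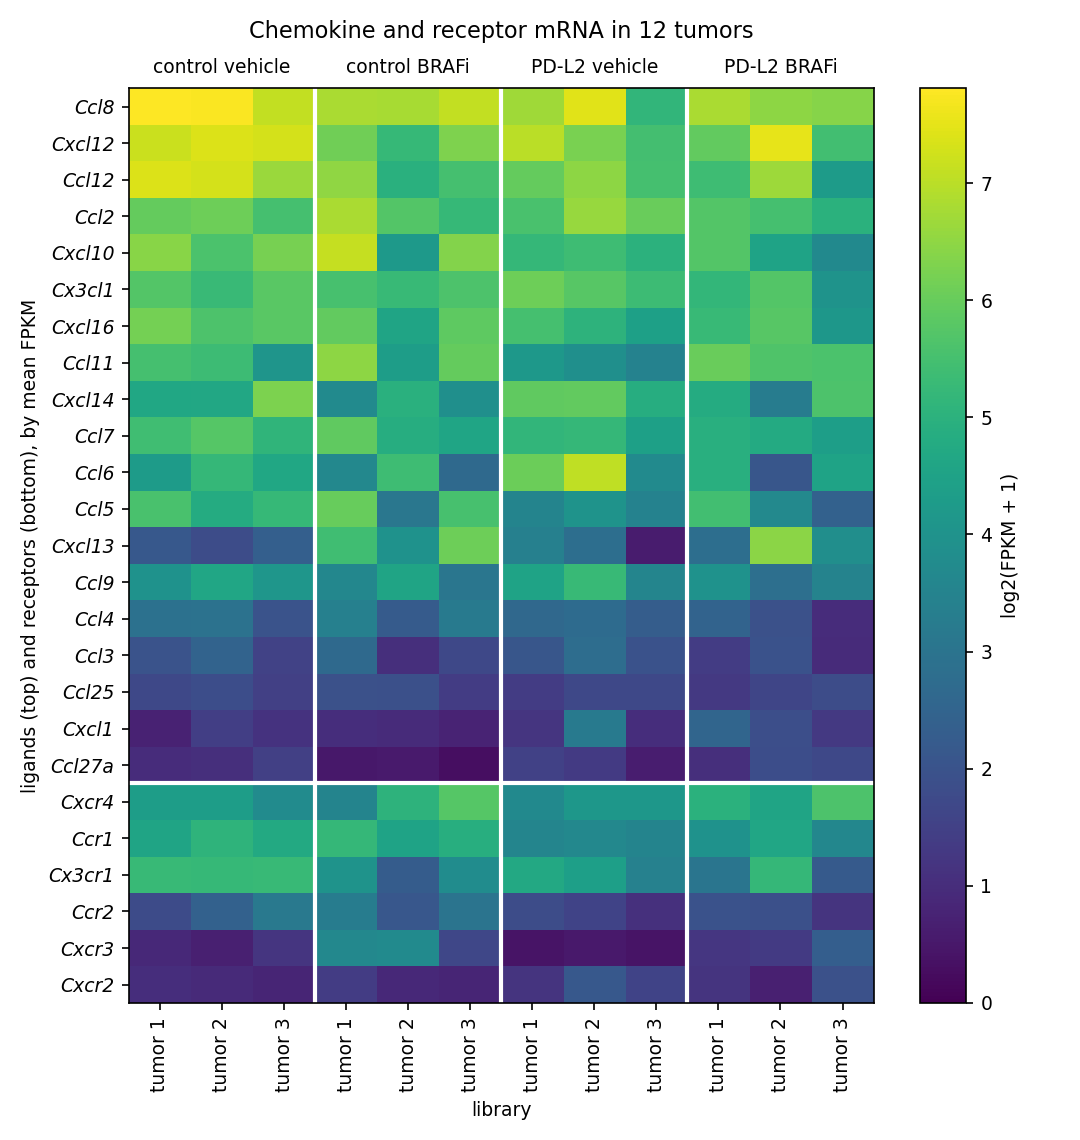
Expression of tested chemokines and receptors as log2(FPKM + 1) (color) in each of the 12 tumors (columns, by group), with ligands above receptors, each in order of mean FPKM. The brightest cells are those of Ccl8 in control vehicle tumors 1 and 2 (223 and 218 FPKM) and of Cxcl12 in PD-L2 BRAFi tumor 2 (184 FPKM), and the Cxcr3 row is brighter in the control BRAFi tumors than in the control vehicle tumors.

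Summed over the ligands, levels ran from 384 FPKM in PD-L2 vehicle tumor 3 to 1017 FPKM in control vehicle tumor 1. As a share of each library's FPKM sum they ran from 0.0602% in PD-L2 vehicle tumor 3 to 0.187% in control BRAFi tumor 1. Among the tested members, 10 of 26 had their highest level in control BRAFi tumor 1. The lowest level fell in PD-L2 BRAFi tumor 3 for 10 members and in PD-L2 vehicle tumor 3 for 7. Single tumors thus set the extremes of many members at once.

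The mean of 1 FPKM separated Ccl27a at 1.23 FPKM from Cxcl9 at 0.944, Cxcl5 at 0.927, Ccr7 at 0.848 and Cxcr6 at 0.622 FPKM. Of the low members, 7 reached 1 FPKM in some library, with highest levels in FPKM in brackets: Cxcl9 (2.42), Ccr7 (2.16) and Ccl22 (1.64) at most in control BRAFi tumor 1, Cxcl5 (2.75) and Cxcl3 (1.40) in PD-L2 BRAFi tumor 3, Cxcr6 (4.60) in control BRAFi tumor 2 and Ccl17 (1.02) in control vehicle tumor 1. Lower peaks were found for Cxcr5 (0.803, PD-L2 BRAFi tumor 1), Ccl24 (0.768, control BRAFi tumor 2), Cxcl2 (0.748, PD-L2 vehicle tumor 2), Ccr9 (0.742, control BRAFi tumor 3), Cxcl11 (0.676, control BRAFi tumor 1) and Ccr10 (0.627, PD-L2 vehicle tumor 2). Ccr6 (0.542) and Ccr1l1 (0.0839) peaked in control BRAFi tumor 1, Ccr3 (0.309) in PD-L2 vehicle tumor 1 and Ccr4 (0.160) in PD-L2 vehicle tumor 3. Cxcl15 (0.0948), Cxcr1 (0.0799), Cxcl17 (0.0849) and Ccl20 (0.0845) did not reach 0.1 FPKM in any tumor. Ccl1, Ccl19, Ccl21a, Ccl21b, Ccl21c, Ccl26, Ccl27b, Ccl28 and Ccr8 were listed at 0 in all 12 libraries. Fragments of the near-identical copies Ccl21a, Ccl21b and Ccl21c, and of Ccl27a and Ccl27b, may have been divided between them in the authors' estimate.

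Promoters are shown for the members past the threshold in any comparison and, to fill up, for those of the highest mean level, since these carry the results that follow. Cxcr3, Cxcl13, Ccl8, Cxcl12 and Ccl12 had an entry in the RefSeq promoter table of build GRCm38.p6, which differs from the authors' mm9, and Ccl11 is named only. Each window runs from 250 bases before to 50 bases after the start of the gene, 5′ to 3′ on the gene's strand. Capitals mark matches, on either strand, to GGGANNNNCC (NF-kB), GAAANNGAAA (an interferon response element), TGANTCA (AP-1) or, as the core of a TATA box, to the letters TATAAA. This last motif was added after these sequences had been read.
Cxcr3, chrX:101734098-101734397, minus strand: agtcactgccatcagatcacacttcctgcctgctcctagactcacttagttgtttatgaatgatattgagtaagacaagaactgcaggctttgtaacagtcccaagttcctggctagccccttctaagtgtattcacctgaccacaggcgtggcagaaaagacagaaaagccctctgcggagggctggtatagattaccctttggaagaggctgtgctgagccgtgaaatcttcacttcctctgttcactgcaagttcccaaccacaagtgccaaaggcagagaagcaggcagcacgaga
Cxcl13, chr5:95956689-95956988, plus strand: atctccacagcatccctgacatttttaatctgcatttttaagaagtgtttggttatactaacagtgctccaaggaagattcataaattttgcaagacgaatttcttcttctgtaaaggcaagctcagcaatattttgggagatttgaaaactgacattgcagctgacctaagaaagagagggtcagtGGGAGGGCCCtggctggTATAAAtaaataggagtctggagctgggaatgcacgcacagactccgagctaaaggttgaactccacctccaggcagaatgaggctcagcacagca
Ccl8, chr11:82114935-82115234, plus strand: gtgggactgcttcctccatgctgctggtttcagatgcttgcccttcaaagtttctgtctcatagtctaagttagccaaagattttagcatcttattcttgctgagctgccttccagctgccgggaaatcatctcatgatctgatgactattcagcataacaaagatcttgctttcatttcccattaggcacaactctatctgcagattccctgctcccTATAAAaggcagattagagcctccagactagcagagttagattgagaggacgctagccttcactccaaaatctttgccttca
Cxcl12, chr6:117168285-117168584, plus strand: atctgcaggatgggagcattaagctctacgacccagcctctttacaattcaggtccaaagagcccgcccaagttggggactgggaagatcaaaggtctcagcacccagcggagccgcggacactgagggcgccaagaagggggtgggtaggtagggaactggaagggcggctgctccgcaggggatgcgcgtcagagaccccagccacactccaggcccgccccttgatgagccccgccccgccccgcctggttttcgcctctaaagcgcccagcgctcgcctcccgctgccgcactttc
Ccl12, chr11:82101595-82101894, plus strand: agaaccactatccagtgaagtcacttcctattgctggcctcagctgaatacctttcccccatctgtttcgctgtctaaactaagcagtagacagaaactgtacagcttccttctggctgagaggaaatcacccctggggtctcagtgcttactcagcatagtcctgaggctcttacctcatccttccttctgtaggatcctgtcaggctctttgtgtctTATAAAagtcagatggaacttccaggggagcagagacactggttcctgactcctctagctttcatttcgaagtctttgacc

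Cxcl13 held a match to the NF-kB letters at position -63 and to the TATA letters at -46 from the start of the gene. Ccl8 and Ccl12, neighbours on chromosome 11, held the TATA letters at -32 and -31. The windows of Cxcr3 and Cxcl12 held none of the 4 motifs, which says only that these letters are not there. Of the 26 tested members 19 had a promoter entry. The NF-kB letters were found in 5 of these 19 genes (Ccl27a, Ccr1, Cxcl1, Cxcl10 and Cxcl13) and in 20.7% of all 32851 windows. The interferon letters were found in Cxcl10 and Cxcl14 (3.44% of all windows), and the AP-1 letters in Ccl27a, Ccl9 and Cxcl10 (7.81%). The TATA letters were found in 7 of the 19 (Ccl12, Ccl25, Ccl8, Ccl9, Cx3cl1, Cxcl13 and Cxcr4) and in 13.6% of all windows. Member counts are of genes with the letters in any of their windows, and percentages are of single windows, so these are unlike measures.

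BRAFi was first compared with vehicle in control tumors. Cxcr3 rose, 1 of the 26 tested members (3.85%), and none fell, while 7.42% of all 12117 tested genes passed, 3.51% higher and 3.91% lower. At an unadjusted p under 0.05 there were 6 members (2 higher and 4 lower) against 31.8% of all genes, 17.7% higher and 14.1% lower. The groups did not overlap for 7 members, 2 higher and 5 lower, against 36.1% of all genes, 19.1% higher and 17% lower. In PD-L2 tumors no member passed limma's test, where 0.239% of all genes did. There 4 members had an unadjusted p under 0.05, all higher, against 21.3% of all genes, 11% higher and 10.4% lower. The PD-L2 groups did not overlap for 4 members, with Ccl11, Cxcr4 and Cxcr3 higher and Ccl3 lower, against 29.9% of all genes, 15.6% higher and 14.3% lower. Averaged over both kinds of tumor, which share no library, Cxcr3, Cxcl13 and Ccl11 rose and none fell, 11.5% of the members against 24.7% of all genes, 13.4% higher and 11.2% lower. At an unadjusted p under 0.05 the average had 8 members, 5 higher and 3 lower, against 40.3% of all genes, 22.3% higher and 18.1% lower. Without PD-L2 BRAFi tumor 2, Cxcl12, Ccl12 and Cx3cr1 passed as well in the average, all lower. Of all 12117 genes, 1807 were then called higher and 1530 lower on average. In control tumors Cxcl13 (higher) and Cx3cr1 (lower) joined Cxcr3 in this fit, where 457 of all genes were called higher and 527 lower. The control tumors in it are the same, and only the spread estimate shared by the 4 groups changed. With 26 members these counts are small, and whether the share of members called differs from that of all genes was not tested.

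The median log2 fold change of the 26 members was -0.19 in control tumors, 0.03 in PD-L2 tumors and -0.19 on average, against 0.02, 0.01 and 0.01 over all genes. Single tumors set the sign of the members' median. With 1 library left out it ranged from -0.41 (without control BRAFi tumor 1) to 0.10 (without control BRAFi tumor 2) in control tumors and from -0.36 (without PD-L2 vehicle tumor 3) to 0.13 (without PD-L2 BRAFi tumor 3) in PD-L2 tumors. In PD-L2 tumors it was also below 0 without PD-L2 vehicle tumor 1 (-0.12), PD-L2 BRAFi tumor 1 (-0.28) or PD-L2 BRAFi tumor 2 (-0.18). The median of the average stayed below 0, between -0.33 and -0.08. Receptors and ligands lay on different sides. The 7 receptors had medians of 0.34 in control and 0.50 in PD-L2 tumors, with 1 and 2 of them below 0, and the 19 ligands medians of -0.30 and -0.24, with 14 and 11 below 0. Gene length moved with this: the longest transcript of the ligands had a median of 1150 nt and that of the receptors 3046 nt, against 3302 nt over all genes. Among all genes, the shortest of 5 equal bins of transcript length had a median BRAFi change of -0.28 in control tumors and the longest bin one of 0.31. With the length trend removed, the members' median in control tumors was 0.11. The part of length in the difference between ligands and receptors was not tested further.

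**Figure D2:**
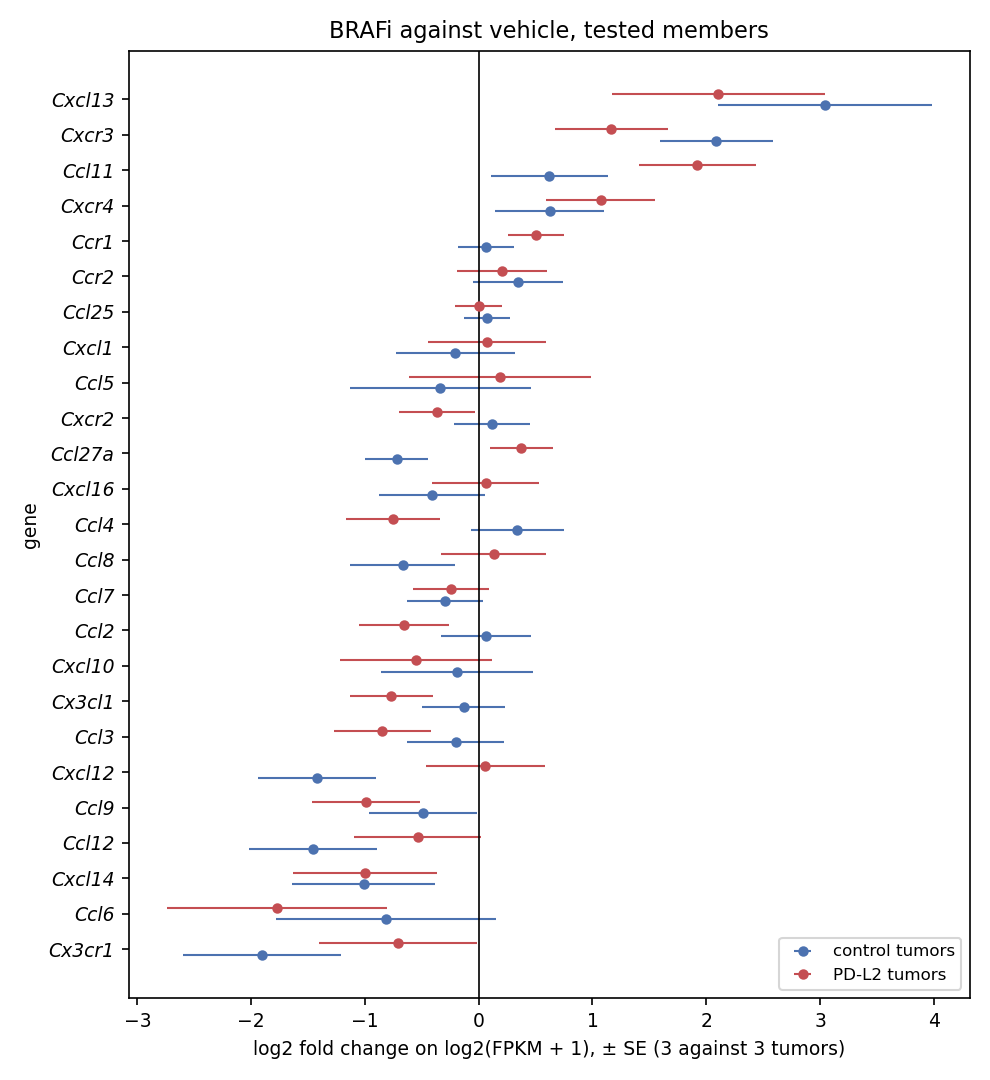
Log2 fold change of BRAFi over vehicle on log2(FPKM + 1), with its standard error, for tested members in control (blue) and PD-L2 tumors (red), in order of the average of both. Cxcl13, Cxcr3 and Ccl11 lie at the top with averages of 2.57, 1.63 and 1.27, and Cx3cr1 at the bottom with -1.31.

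Cxcr3, the receptor of Cxcl9, Cxcl10 and Cxcl11, is known from activated T and NK cells. Listed in the order of tumors 1 to 3, as all values here are, Cxcr3 was at 0.850, 0.604 and 1.31 FPKM in control vehicle and at 11.4, 12.4 and 2.17 FPKM in control BRAFi tumors. In PD-L2 tumors it was at 0.344, 0.439 and 0.337 FPKM under vehicle and at 1.34, 1.48 and 4.03 FPKM under BRAFi. Every BRAFi tumor thus lay above every vehicle tumor of its kind, with control BRAFi tumor 3 closest to the vehicle range. Cxcr3 rose in control tumors by 2.09 ± 0.49 on the log2 scale (SE, limma adjusted p = 0.0396), a ratio of means of 9.43. In PD-L2 tumors its change was 1.17 ± 0.49 (limma adjusted p = 0.213), and on average it rose by 1.63 ± 0.35 (adjusted p = 0.0128). Its call in control tumors ended without any of control vehicle tumors 1 and 2, control BRAFi tumors 1 and 2, the 3 PD-L2 vehicle tumors or PD-L2 BRAFi tumor 1 (adjusted p up to 0.143). It also ended with the gene length trend removed (adjusted p = 0.0638, or 0.0894 with the replicate block), with no filter on low values (0.0708) and with only the libraries of the comparison (0.121). The call held in 10 of 22 alternatives, while the average passed in 21 of 21. Calls over all genes in control tumors, 425 higher and 474 lower as reported, were also fewer in every fit in which the Cxcr3 call there ended.

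The ligand Cxcl10 did not pass in the BRAFi comparisons. It was at 85.3, 47.9 and 72.7 FPKM in control vehicle and at 137, 17.7 and 80.5 FPKM in control BRAFi tumors. PD-L2 vehicle tumors had 36.0, 41.0 and 31.3 FPKM and PD-L2 BRAFi tumors 52.3, 21.9 and 12.2 FPKM. The ranges under BRAFi enclosed those under vehicle in both kinds of tumor, and the average change was -0.37 ± 0.47 (limma adjusted p = 0.579). Cxcl9 stayed between 0.218 and 2.42 FPKM and Cxcl11 between 0.0972 and 0.676 FPKM over the 12 tumors, both below the mean needed for the test. NK cell markers moved with Cxcr3 at very low levels, and their part in the result was not tested. Their 7 genes summed to 0.539 to 0.687 FPKM in control vehicle, 1.45 to 2.31 in control BRAFi, 0.124 to 0.375 in PD-L2 vehicle and 0.397 to 2.16 FPKM in PD-L2 BRAFi tumors. The defining genes Ncr1, Nkg7 and Prf1 were at 0 in most libraries and at most at 0.0420, 0.118 and 0.0228 FPKM. Gzmb reached 1.41 FPKM in control BRAFi tumor 2, the tumor in which Cxcr6 was at 4.60 FPKM. Fewer cells of a type and less RNA per cell cannot be told apart in these bulk samples.

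Cxcl13 attracts B cells through Cxcr5, which had a mean of 0.564 FPKM here, and the B cell marker Ms4a1 was at most at 0.0902 FPKM. Control vehicle tumors had 3.47, 2.55 and 4.19 FPKM of Cxcl13 and control BRAFi tumors 41.8, 14.8 and 67.2 FPKM, a ratio of means of 12.1. PD-L2 vehicle tumors had 9.64, 6.03 and 0.516 FPKM and PD-L2 BRAFi tumors 6.12, 86.3 and 13.6 FPKM. The control groups did not overlap, whereas in PD-L2 tumors BRAFi tumor 1 lay within the vehicle range and the library that stands apart was the highest of all 12. The change was 3.04 ± 0.94 in control tumors (limma adjusted p = 0.0653) and 2.11 ± 0.94 in PD-L2 tumors (adjusted p = 0.229). On average Cxcl13 rose by 2.57 ± 0.66 (adjusted p = 0.0215), which passed in 22 of 22 alternatives. Without PD-L2 BRAFi tumor 2, Cxcl13 rose on average by 2.06 ± 0.55 (adjusted p = 0.0267), and its change in PD-L2 tumors was 1.07 ± 0.82 (adjusted p = 0.445). The change in control tumors stayed at 3.04, since no control library was left out. Only the spread shared by the 4 groups changed there, with an SE of 0.73 in place of 0.94, and Cxcl13 passed (adjusted p = 0.0441).

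Ccl11, the eosinophil attractant eotaxin, was at 44.7, 39.6 and 16 FPKM in control vehicle and at 88.6, 19.5 and 61.5 FPKM in control BRAFi tumors. In PD-L2 vehicle tumors it was at 16.9, 14.0 and 9.94 FPKM and in PD-L2 BRAFi tumors at 64.7, 49.6 and 47.2 FPKM. Only the PD-L2 groups were separate, with means of 13.6 ± 3.51 and 53.8 ± 9.50 FPKM (SD, n = 3 each). The change was 1.92 ± 0.51 in PD-L2 tumors (limma adjusted p = 0.103) and 0.62 ± 0.51 in control tumors (adjusted p = 0.418), and the difference between these was 1.30 ± 0.72 (adjusted p = 0.956). On average Ccl11 rose by 1.27 ± 0.36 (adjusted p = 0.0299). This call passed in 13 of 22 alternatives and ended without control vehicle tumor 3, control BRAFi tumors 1 or 3, any PD-L2 vehicle tumor, or PD-L2 BRAFi tumors 1 or 3, with adjusted p up to 0.0629, and with no filter on low values (adjusted p = 0.057). Its receptor Ccr3 was at most at 0.309 FPKM. The pericyte list was also higher under BRAFi in its sum. On average 4 of its 8 genes rose, against 13.4% of all genes called higher. The list summed to 142 to 166 FPKM in control vehicle and 180.0 to 247 FPKM in control BRAFi tumors, without overlap, whereas Ccl11 overlapped there. In PD-L2 tumors it summed to 114 to 140.4 FPKM under vehicle and 189 to 241 FPKM under BRAFi. Rgs5 (1.57 ± 0.30, limma adjusted p = 0.0089), Notch3 (0.74 ± 0.16, adjusted p = 0.0133), Pdgfrb (0.64 ± 0.18, adjusted p = 0.0307) and Cspg4 (0.53 ± 0.16, adjusted p = 0.0402, also called higher in control tumors) of this list rose on average. The list's median was 0.53, and Des (-0.78 ± 0.82), Kcnj8 (-0.12 ± 0.41) and Acta2 (-0.09 ± 0.21) lay below 0 without passing. The part of pericyte content in Ccl11 and Cxcl13 was not tested.

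**Figure D3:**
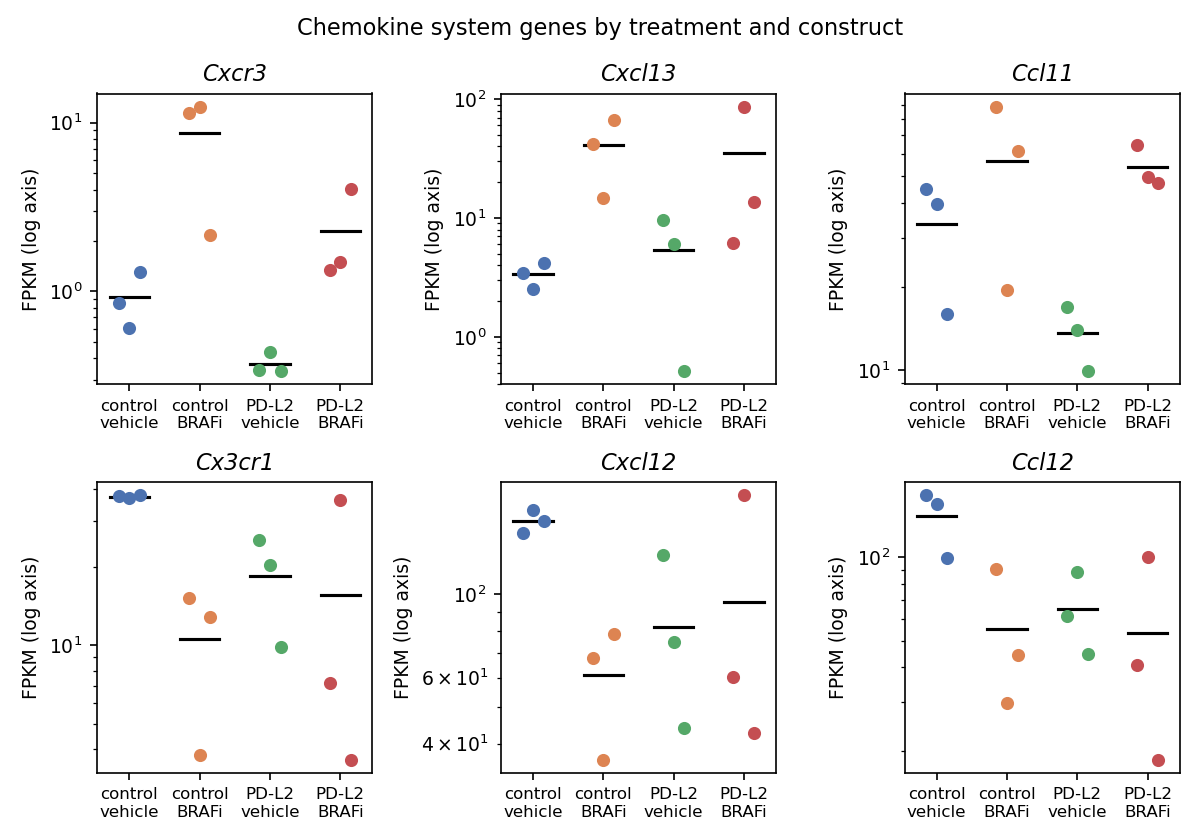
FPKM on a log axis in each tumor (points) with the group mean (bar) for Cxcr3, Cxcl13, Ccl11, Cx3cr1, Cxcl12 and Ccl12 in the 4 groups. Cxcr3 and Cxcl13 are higher in all 3 control BRAFi tumors than in the control vehicle tumors, while Cx3cr1, Cxcl12 and Ccl12 are lower, and PD-L2 BRAFi tumor 2 is the highest of its group for Cxcl13, Cx3cr1, Cxcl12 and Ccl12.

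On the lower side stood Cx3cr1, the fractalkine receptor of monocytes and tissue macrophages. It was at 37.3, 36.7 and 37.8 FPKM in control vehicle and at 15.2, 3.78 and 12.8 FPKM in control BRAFi tumors. PD-L2 vehicle tumors had 25.5, 20.3 and 9.83 FPKM and PD-L2 BRAFi tumors 7.14, 36.1 and 3.64 FPKM. Control tumors did not overlap, and in PD-L2 tumors all but PD-L2 BRAFi tumor 2 did the same. The change was -1.90 ± 0.69 in control tumors (limma adjusted p = 0.0955), -0.71 ± 0.69 in PD-L2 tumors (adjusted p = 0.576) and -1.31 ± 0.49 on average (adjusted p = 0.0742). Without that tumor the change in PD-L2 tumors was -1.57 ± 0.53 (adjusted p = 0.157), and Cx3cr1 fell on average by 1.74 ± 0.35 (adjusted p = 0.0139). The change in control tumors stayed at -1.90, since no control library was left out. Only the spread shared by the 4 groups changed there, with an SE of 0.47 in place of 0.69, and Cx3cr1 passed (adjusted p = 0.0455). Its ligand Cx3cl1, which is anchored to the membrane until cleaved, was at 51.8, 38.5 and 54.8 FPKM in control vehicle and 45.8, 37.1 and 48.6 FPKM in control BRAFi tumors. In PD-L2 tumors Cx3cl1 was at 66.5, 53.6 and 39.8 FPKM under vehicle and at 35.2, 51.6 and 15 FPKM under BRAFi. These ranges overlapped, with an average change of -0.45 ± 0.26 (adjusted p = 0.215). Exons of Cx3cr1 overlap those of Gm33858 on the opposite strand, and the libraries are unstranded.

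Cxcl12, which keeps leukocytes and stem cells in tissues through Cxcr4, was at 146, 168 and 157 FPKM in control vehicle and at 67.7, 36.3 and 78.4 FPKM in control BRAFi tumors. PD-L2 vehicle tumors had 127, 74.6 and 44.0 FPKM and PD-L2 BRAFi tumors 60.1, 184 and 42.7 FPKM. The control groups were separate, and in the PD-L2 groups the highest value was that of PD-L2 BRAFi tumor 2. The change in control tumors was -1.42 ± 0.52 (limma adjusted p = 0.0961), and that in PD-L2 tumors 0.06 ± 0.52 (adjusted p = 0.965), with a difference of 1.48 ± 0.74 (adjusted p = 0.956). On average it was -0.68 ± 0.37 (adjusted p = 0.189), and without PD-L2 BRAFi tumor 2 Cxcl12 fell by 0.99 ± 0.28 (adjusted p = 0.0332). Without that tumor the change of Cxcl12 in PD-L2 tumors was on the other side of 0, at -0.55 ± 0.42 (adjusted p = 0.448), and the difference was 0.87 ± 0.57. The receptor Cxcr4 was at 19.3, 19.6 and 12.5 FPKM in control vehicle and at 10.6, 32.1 and 53.2 FPKM in control BRAFi tumors. It was at 11.9, 16.4 and 16.5 FPKM in PD-L2 vehicle and at 30.7, 22.5 and 48.4 FPKM in PD-L2 BRAFi tumors. Only the PD-L2 groups were separate, and the average change of Cxcr4 was 0.85 ± 0.34 (adjusted p = 0.0879), or 1.16 without control BRAFi tumor 1 (adjusted p = 0.0146).

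The monocyte attractants Ccl2, Ccl7 and Ccl12, which bind Ccr2 in mice, and Ccl8, which binds Ccr8 there, are encoded side by side on chromosome 11. Ccl12 was at 167, 156 and 99.2 FPKM in control vehicle and at 90.7, 29.8 and 44.2 FPKM in control BRAFi tumors. PD-L2 vehicle tumors had 61.3, 88.5 and 44.6 FPKM and PD-L2 BRAFi tumors 40.8, 100.3 and 18.6 FPKM. The control groups did not overlap, and the PD-L2 groups overlapped through PD-L2 BRAFi tumor 2. The change was -1.46 ± 0.56 in control tumors (limma adjusted p = 0.108) and -1.0 ± 0.40 on average (adjusted p = 0.0878). Without that tumor Ccl12 fell on average by 1.30 ± 0.33 (adjusted p = 0.0237). Ccl8 was at 223, 218 and 136 FPKM in control vehicle and at 111, 109 and 135 FPKM in control BRAFi tumors. It was at 103, 175 and 34.1 FPKM in PD-L2 vehicle and at 112, 88.4 and 83.4 FPKM in PD-L2 BRAFi tumors. The control groups were barely separate, and the change there was -0.67 ± 0.46 (adjusted p = 0.335). Without PD-L2 vehicle tumor 3, the lowest of the 12 for Ccl8, Ccl8 passed as lower on the BRAFi average.

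Ccl2 was at 61.5, 67.5 and 44.4 FPKM in control vehicle, at 113, 51.3 and 36.3 in control BRAFi, at 46.2, 95.8 and 64.1 in PD-L2 vehicle and at 51.8, 44.2 and 30.8 FPKM in PD-L2 BRAFi tumors. Ccl7 was at 41.2, 52.4 and 33.3 FPKM, 58.6, 28.3 and 22.9 FPKM, 34.5, 35.5 and 20.7 FPKM, and 29.5, 26.1 and 19.7 FPKM in the same groups. For both genes the BRAFi and vehicle ranges overlapped in control and in PD-L2 tumors, with average changes of -0.30 ± 0.28 for Ccl2 and -0.27 ± 0.24 for Ccl7 (limma adjusted p = 0.44 and 0.413). Their receptor Ccr2 changed by 0.27 ± 0.28 on average (adjusted p = 0.479). The macrophage list moved with the lower members: its 16 genes summed to 2284 to 3567 FPKM in control vehicle and 808 to 1614 FPKM in control BRAFi tumors, without overlap, and to 1092 to 2434 and 578 to 1914 FPKM in the PD-L2 groups. Folr2 (-1.51 ± 0.24, limma adjusted p = 0.0064, also called in control tumors), Lyz2 (-1.65 ± 0.41, adjusted p = 0.0192) and Cd68 (-0.70 ± 0.20, adjusted p = 0.031) of this list fell on average. These are 3 of its 16 genes, against 11.2% of all genes called lower. On average 14 of the 16 lay below 0 and the rest did not. The list's median change was -0.65, and no marker of it was at 0. The part of macrophage content in Cx3cr1, Cxcl12, Ccl12 and Ccl8 was not tested.

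The inflammatory ligands Ccl3 and Ccl5, which bind Ccr1, and the related Ccl4 did not pass in any comparison. Ccl5 was at 46.6, 27.1 and 36.2 FPKM in control vehicle and at 62.2, 7.5 and 45.0 FPKM in control BRAFi tumors. It was at 10.5, 15.3 and 9.92 FPKM in PD-L2 vehicle and at 42.9, 11.9 and 4.37 FPKM in PD-L2 BRAFi tumors. Under BRAFi its values spread over a wider range than under vehicle in both kinds of tumor, and the average change was -0.07 ± 0.56 (limma adjusted p = 0.935). Ccl4 was at 6.49, 6.69 and 2.97 FPKM in control vehicle, 9.49, 3.77 and 8.27 in control BRAFi, 5.18, 5.59 and 3.93 in PD-L2 vehicle and 4.59, 2.81 and 0.978 FPKM in PD-L2 BRAFi tumors. Ccl3 was at 3.00, 4.59 and 1.88 FPKM, 5.40, 1.05 and 2.22 FPKM, 3.29, 5.94 and 2.92 FPKM, and 1.63, 2.87 and 0.961 FPKM in these groups. For Ccl3 the PD-L2 BRAFi tumors were all below the PD-L2 vehicle tumors (-0.85 ± 0.43, adjusted p = 0.278), while all other BRAFi and vehicle ranges of Ccl3 and Ccl4 overlapped. The Ccr1 ligands Ccl6 and Ccl9 had average changes of -1.29 ± 0.68 and -0.74 ± 0.34 (adjusted p = 0.18 and 0.125), or -0.85 and -0.59 without PD-L2 BRAFi tumor 2. Ccl9 passed as lower on average without PD-L2 vehicle tumor 3.

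Ccl6 differed widely between tumors of a group, at 18.4, 35.8 and 24.3 FPKM in control vehicle, 11.4, 41.1 and 5.36 in control BRAFi, 64.8, 132 and 12.5 in PD-L2 vehicle and 29.2, 3.26 and 22.0 FPKM in PD-L2 BRAFi tumors. Ccl9 was at 14.9, 23.4 and 16.2 FPKM, 11.2, 22.5 and 7.37 FPKM, 21.9, 37.5 and 10.6 FPKM, and 14.9, 6.24 and 10.4 FPKM in these groups. Both ligands were highest in PD-L2 vehicle tumor 2 and had control BRAFi tumor 2 as the highest of its group. Cxcl14, a chemokine of skin and other epithelia, was at 24.2, 24.8 and 75.4 FPKM in control vehicle, 12.2, 30.0 and 13.8 in control BRAFi, 59.0, 60.4 and 28.2 in PD-L2 vehicle and 27.0, 8.62 and 48.9 FPKM in PD-L2 BRAFi tumors. Its average change under BRAFi was -1.01 ± 0.45 (limma adjusted p = 0.118), or -0.68 without PD-L2 BRAFi tumor 2, with overlap in both kinds of tumor. Its highest levels under vehicle in control tumors and under BRAFi in PD-L2 tumors were in tumor 3 of each group, and under vehicle in PD-L2 tumors in tumor 2. The same 3 libraries held skeletal muscle transcripts, with 376, 146.5 and 86.4 FPKM over 6 genes against at most 12.4 FPKM elsewhere. PD-L2 vehicle tumor 1, with 12.4 FPKM of muscle genes, had nearly the same Cxcl14 level as tumor 2 (59.0 and 60.4 FPKM). The control BRAFi tumors went the other way: Cxcl14 was highest in tumor 2, with 1.19 FPKM of muscle genes, and lowest in tumor 1, with 9.62 FPKM. The part of adjoining tissue in Cxcl14 was not tested.

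PD-L2 tumors were then compared with control tumors. No member passed limma's test under vehicle (0% of all genes passed), under BRAFi (0.0743%) or on average (0.099%). Under vehicle 5 members had an unadjusted p under 0.05, all lower, against 10.9% of all genes, 6.17% higher and 4.71% lower. The groups did not overlap for 10 members, 9 of them lower, where 20.6% of all genes did not overlap, 10% higher and 10.5% lower. Under BRAFi the counts were 6 members at an unadjusted p under 0.05, 5 of them lower, against 7.06% of all genes, 4.25% higher and 2.81% lower. The BRAFi groups did not overlap for 4 members, 2 in each direction, against 11.5% of all genes, 6.68% higher and 4.78% lower. On average 9 members had an unadjusted p under 0.05, 2 higher and 7 lower, against 13.6% of all genes, 7.53% higher and 6.02% lower. The median log2 fold change on average was -0.39 over the 26 members, 20 of them below 0, against 0.00 over all genes. With 1 library left out it lay between -0.56, when control BRAFi tumor 2 was left out, and -0.18, when PD-L2 BRAFi tumor 3 was, and it was -0.21 without PD-L2 vehicle tumor 3. It was -0.83 over the 7 receptors and -0.31 over the 19 ligands. These comparisons reuse the libraries of the BRAFi comparisons.

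Ccr1, a receptor of monocytes and neutrophils for Ccl3, Ccl5, Ccl6 and Ccl9, had the smallest p of the members under vehicle and on average. It was at 22.8, 33.0 and 25.9 FPKM in control vehicle and at 10.7, 11.6 and 10.5 FPKM in PD-L2 vehicle tumors. Under BRAFi it was at 35.7, 22.0 and 28.5 FPKM in control and at 14.7, 23.8 and 11.4 FPKM in PD-L2 tumors. Every PD-L2 tumor except PD-L2 BRAFi tumor 2 lay below every control tumor. The difference was -1.23 ± 0.25 under vehicle (limma adjusted p = 0.227), -0.79 ± 0.25 under BRAFi (adjusted p = 0.549) and -1.01 ± 0.18 on average (adjusted p = 0.0893). Without PD-L2 BRAFi tumor 2 the average was -1.15 ± 0.14, and Ccr1 passed (adjusted p = 0.016).

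Ccr2, which brings monocytes out of the bone marrow, was at 2.44, 4.38 and 7.87 FPKM in control vehicle and at 2.5, 1.97 and 1.12 FPKM in PD-L2 vehicle tumors. Under BRAFi it was at 8.68, 3.33 and 7.0 FPKM in control and at 2.94, 2.79 and 1.26 FPKM in PD-L2 tumors. Only the BRAFi groups were separate, and the average difference was -1.03 ± 0.28 (limma adjusted p = 0.199).

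**Figure D4:**
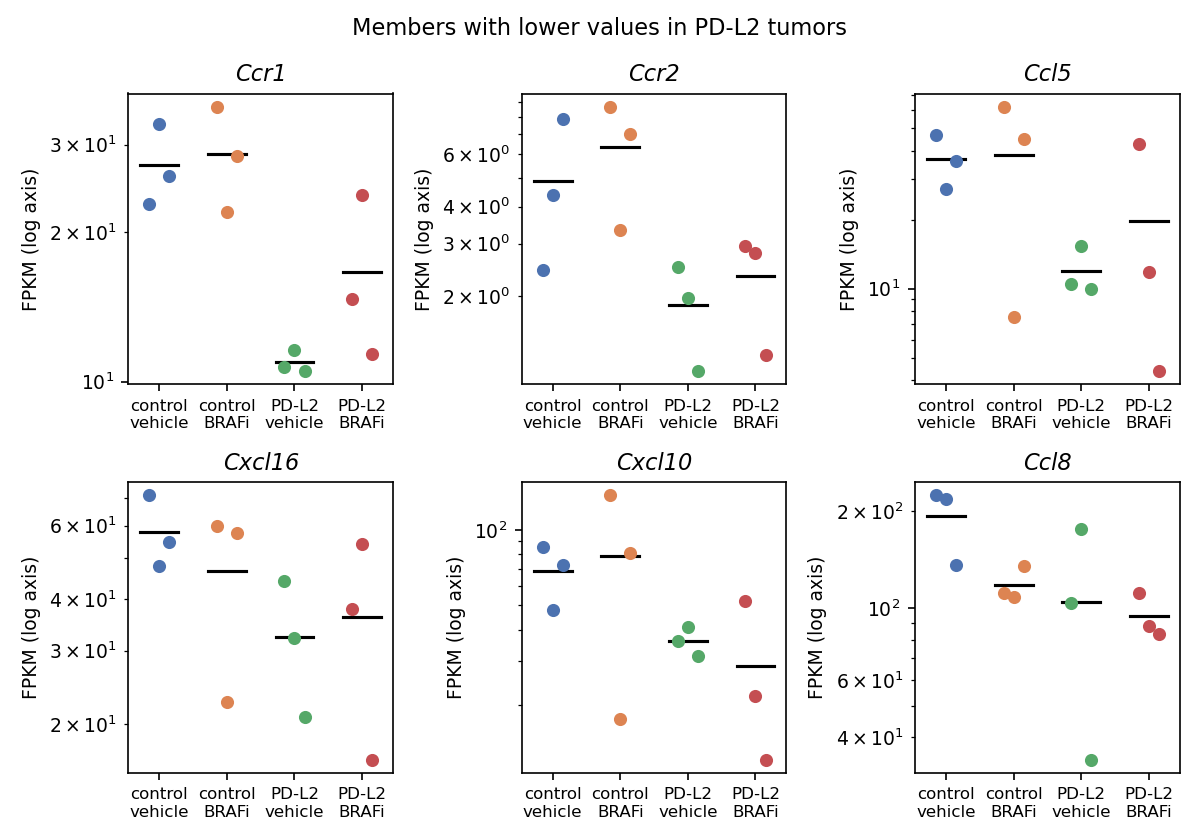
FPKM on a log axis in each tumor (points) with the group mean (bar) for Ccr1, Ccr2, Ccl5, Cxcl16, Cxcl10 and Ccl8 in the 4 groups. PD-L2 vehicle tumors lie below control vehicle tumors without overlap for Ccr1, Ccl5, Cxcl16 and Cxcl10, and PD-L2 BRAFi tumor 2 lies within the control range for Ccr1.

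Cxcl10 and Ccl5, ligands known to be induced by interferon, were next compared. Under vehicle the values given above for Cxcl10 and Ccl5 did not overlap between PD-L2 and control tumors, and under BRAFi they did. The average difference was -1.06 ± 0.47 for Cxcl10 (limma adjusted p = 0.364) and -1.27 ± 0.56 for Ccl5 (adjusted p = 0.361). For Ccl8 it was -0.72 ± 0.33 (adjusted p = 0.369), for Cxcr3 -0.93 ± 0.35 (adjusted p = 0.297) and for Ccl11 -0.49 ± 0.36 (adjusted p = 0.573). Cxcl16, a membrane-bound ligand of Cxcr6, was at 71.0, 48.0 and 54.7 FPKM in control vehicle, 59.8, 22.6 and 57.6 in control BRAFi, 44.2, 32.3 and 20.8 in PD-L2 vehicle and 37.7, 54.1 and 16.4 FPKM in PD-L2 BRAFi tumors. The vehicle groups were separate, the BRAFi groups were not, and the average difference of Cxcl16 was -0.63 ± 0.33 (adjusted p = 0.43). Exons of Cxcl16 overlap those of Zmynd15.

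Genes of other lists moved with these members. All 17 tested genes of the interferon list lay below 0 in PD-L2 against control tumors on average, with a median of -0.98 and none past the threshold, where 49.6% of all genes lay below 0. Their list summed to 549.8 to 883 FPKM in control vehicle, 269 to 1099 in control BRAFi, 304 to 462 in PD-L2 vehicle and 230.5 to 528 FPKM in PD-L2 BRAFi tumors. Ifng was listed at 0 in all 12 libraries. Dendritic cell markers summed to 96.3 to 287 FPKM in control vehicle and 37.0 to 79.9 FPKM in PD-L2 vehicle tumors without overlap, and to 76.8 to 356 and 41.1 to 200.3 FPKM under BRAFi. Their 4 tested genes had a median of -1.20 on average, and the defining genes Flt3 and Clec9a had means of 0.239 and 0.232 FPKM. The median of the 16 macrophage markers was -0.37. The part of these cells and of interferon signalling in the lower receptors and ligands was not tested.

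**Figure D5:**
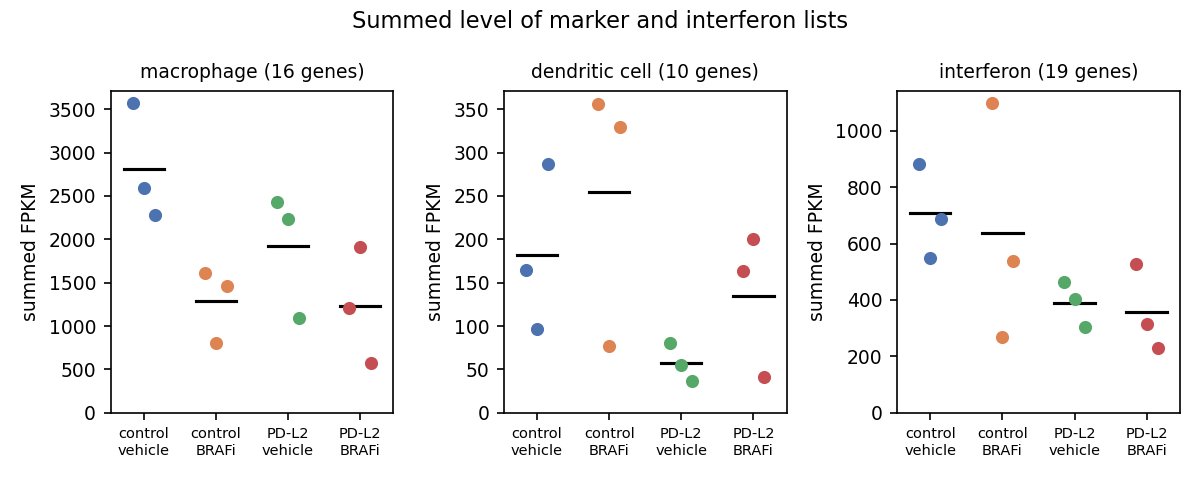
Summed FPKM of the macrophage, dendritic cell, and interferon lists in each tumor (points) with the group mean (bar). Macrophage sums of control BRAFi tumors (808 to 1614) lie below those of control vehicle tumors (2284 to 3567), and the dendritic cell sums of PD-L2 vehicle tumors (37.0 to 79.9) lie below those of control vehicle tumors (96.3 to 287).

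A few members were higher in PD-L2 tumors, and none passed. Cxcl1, a neutrophil attractant, was at 0.675, 1.73 and 1.23 FPKM in control vehicle, 1.03, 0.931 and 0.710 in control BRAFi, 1.33, 8.39 and 1.05 in PD-L2 vehicle and 4.82, 2.66 and 1.44 FPKM in PD-L2 BRAFi tumors. It was separate between the BRAFi groups, with an average difference of 0.85 ± 0.37 (limma adjusted p = 0.353). Its receptor Cxcr2 had values of 0.740 to 1.01 FPKM in control vehicle and 1.26 to 3.43 FPKM in PD-L2 vehicle tumors, also without overlap, and an average difference of 0.47 ± 0.24 (adjusted p = 0.41). Ccl27a, a skin chemokine and the ligand of Ccr10, was at 1.01, 1.07 and 1.78 FPKM in control vehicle, 0.412, 0.486 and 0.227 in control BRAFi, 1.85, 1.51 and 0.559 in PD-L2 vehicle and 1.09, 2.60 and 2.23 FPKM in PD-L2 BRAFi tumors. Under BRAFi all control tumors of this gene lay below all PD-L2 tumors (1.08 ± 0.28, adjusted p = 0.441) and below all control vehicle tumors (-0.72 ± 0.28, adjusted p = 0.11). Its exons overlap those of Il11ra1 on the opposite strand. Ccl25, the Ccr9 ligand of thymus and gut, overlaps Elavl1 and was between 1.48 and 2.82 FPKM in every tumor, with changes from -0.15 to 0.07 in all 7 comparisons.

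The interaction asked whether the BRAFi response differed between PD-L2 and control tumors. No member passed limma's test, against 0.0165% of all genes, and 1 had an unadjusted p under 0.05, against 4.47% of all genes, 2.19% higher and 2.29% lower. That member was Ccl27a, with a difference of 1.10 ± 0.40 (limma adjusted p = 0.956). The members' median was 0.03. The smallest and largest differences were -1.09 ± 0.58 for Ccl4 and 1.48 ± 0.74 for Cxcl12. Without PD-L2 BRAFi tumor 2 they were -1.97 ± 1.10 for Cxcl13 and 1.35 ± 0.81 for Ccl11.

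Chemokine system genes outside the symbol rule were examined next. Pf4, the platelet and macrophage chemokine CXCL4, was at 61.8, 76.1 and 42.6 FPKM in control vehicle and at 18.6, 16.3 and 10.2 FPKM in control BRAFi tumors. It was at 35.7, 76.1 and 43.2 FPKM in PD-L2 vehicle and at 27.3, 28.1 and 9.38 FPKM in PD-L2 BRAFi tumors. Every BRAFi tumor lay below every vehicle tumor, and Pf4 fell by 1.93 ± 0.42 in control tumors (limma adjusted p = 0.0354) and by 1.61 ± 0.30 on average (adjusted p = 0.00858). The platelet list had 1 of 6 genes tested, Gp1bb (-0.27 ± 0.16 on average, adjusted p = 0.226), and summed to 2.9 to 5.6 FPKM in all libraries. Ackr4, a decoy receptor that clears Ccl19, Ccl21 and Ccl25, rose on average by 1.20 ± 0.34 (adjusted p = 0.0295), with a mean level of 5.46 FPKM. Ackr3, the other Cxcl12 receptor, had a mean of 58.7 FPKM and an average change of 0.90 ± 0.44 (adjusted p = 0.151). Of the 9 tested genes of this list of 14, 1 rose and 1 fell on average, and the median was -0.10.

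Lists are read here on the BRAFi average, where 13.4% of all tested genes were called higher and 11.2% lower. For the intracellular signalling genes of chemokine receptors few calls were made. Of 28 tested genes 2 rose on average, the Src-family kinase Fgr (0.58 ± 0.17, limma adjusted p = 0.0345) and the Gi subunit gene Gnai3 (0.28 ± 0.09, adjusted p = 0.0438). Another Gi subunit gene, Gnai2, fell (-0.37 ± 0.08, adjusted p = 0.0128; in control tumors -0.49 ± 0.11, adjusted p = 0.0375), and the list's median was -0.05. Among genes that cleave or present chemokines, 4 of 11 rose on average and none fell (median 0.30). They were the gelatinase Mmp9 (2.21 ± 0.22, adjusted p = 0.0036, also called higher in PD-L2 tumors), the heparan sulfate enzyme Ndst1 (0.67 ± 0.16, adjusted p = 0.0184), the membrane-bound protease Mmp14 (0.30 ± 0.10, adjusted p = 0.0437) and the proteoglycan Sdc1 (0.71 ± 0.23, adjusted p = 0.0499). Of 23 tested NF-kB and inflammatory cytokine genes only the macrophage growth factor Csf1 passed on average, and it fell (-1.0 ± 0.27, adjusted p = 0.0247; list median -0.07). No interferon gene passed on average (median -0.27), with Ifngr2 at -0.15 ± 0.06 (adjusted p = 0.0772) and Ifnar1 at 0.16 ± 0.09 (adjusted p = 0.177). In the comparisons of PD-L2 with control tumors no gene of these 5 lists or of the cell type lists passed.

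The remaining cell type lists were read on the BRAFi average. In the neutrophil list 1 of 6 tested genes rose, the decoy receptor gene Il1r2 (0.63 ± 0.17, limma adjusted p = 0.0232; in control tumors 0.93 ± 0.24, adjusted p = 0.045), with a list median of -0.06. In the dendritic cell list Itgax rose (0.90 ± 0.28, adjusted p = 0.0391; median 0.68 over 4 genes). No endothelial gene passed (9 tested, median -0.01, Cdh5 at 1.17 ± 0.47 and Vwf at 0.38 ± 0.17), nor any fibroblast gene (8 tested, median 0.09, Lum at 0.86 ± 0.33 and Fap at 0.17 ± 0.15). The 5 tested mast cell genes (median 0.01, Mcpt4 at 0.50 ± 0.44 and Tpsab1 at 0.30 ± 0.29) and the 2 tested lymphocyte genes, Cd79b (-0.13 ± 0.29) and Cd4 (0.06 ± 0.33), did not pass either. Keratinocyte genes (4 tested, median 0.59, Krt5 at 0.87 ± 0.76 and Krt14 at 1.02 ± 0.93) summed to 144.9 FPKM in PD-L2 BRAFi tumor 3 and to at most 2.9 FPKM elsewhere, and none passed. Skeletal muscle genes (6 tested, median -0.90, Myh4 at -0.99 ± 0.72 and Ckm at -1.27 ± 0.97) and the melanocyte genes Sox10 (1.29 ± 0.61) and Mitf (-0.14 ± 0.13) did not pass. No NK cell or adipocyte gene reached the mean of 1 FPKM that the test required, and the adipocyte list summed to 7.6 FPKM in control vehicle tumor 3 and to at most 0.6 FPKM elsewhere.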

How the data were processed

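RNA of 12 tumors was sequenced by the submitters after poly(A) selection with an unstranded kit; the labels give paired-end and the series design single-end reads. The authors deposited 1 table of FPKM values for 23940 genes, 4192 of them listed at 0 in every library, and per the submitters' processing notes used TopHat, TopHat2, Cuffnorm, Cuffdiff and build mm9. Their roles, versions and annotation were not given in the sources used here. Factors that set the median ratio between libraries equal were 0.985 to 1.016, so the deposited values were already near a common median level. Whether they were scaled between libraries beyond the mapped total is unknown. Depth is unknown: low values of 6701 genes in 66 pairs of libraries had 1 common ratio, to within 0.1 in log2 units, for a share of 0.062 to 0.17, too few to recover reads. An exact 0 can be a failed estimate.

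Genes averaging 1 FPKM or more, 12117 in all, were analysed as log2(FPKM + 1) with limma 3.58.1 under R 4.3.3, with 1 mean per group over the 4 groups (trended empirical Bayes, two-sided, Benjamini-Hochberg over all 12117 genes, threshold 0.05); all adjusted p are from it. Fold changes on this scale understate changes of low genes. The fit was tested on simulated data. The members, the lists, the tests and the rule for naming genes were chosen with earlier results of these data known. The rule names tested members, gives every library for those with a mean of at least 5 FPKM, an unadjusted p under 0.05 or separate BRAFi and vehicle groups, and names list genes past the threshold or, where none passed, the 2 of smallest p. Lists covered other chemokine system genes, receptor signalling, NF-kB and cytokines, interferon genes, chemokine processing, and 14 cell types. Some genes, 1 of the interferon list among them, are not reported here, and members among them are still counted in the totals. Lengths and overlaps come from GENCODE vM21. The alternatives changed the pseudocount, filter, scaling, spread estimate, trend, replicate block, length correction and libraries included.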

Additional observations from a re-analysis of the deposited data

How the results depend on the processing

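In control tumors the number of members called under BRAFi, 1 as reported (Cxcr3), was 0 with no filter on low values, with the filter raised to 5 FPKM (which leaves Cxcr3 out), with the gene length trend removed, with that and the replicate block, and when just the 2 groups compared were fitted. It was 2 (Cxcr3 and Cxcl13) after rescaling each library to the same FPKM sum, a scaling under which all genes had a median of 0.17, and 0 to 3 when single libraries were left out. On the BRAFi average the count of 3 was 2 to 6 with a library left out, the 6 without PD-L2 BRAFi tumor 2, and on the PD-L2 average the count of 0 was 0 to 1, the 1 being Ccr1 without the same tumor. Without this tumor 1807 of all genes were called higher and 1530 lower on the BRAFi average, and 17 and 6 on the PD-L2 average. The other counts of members, 141 of 158, stayed within 1.5 times the reported one. Most of these were counts of 0 that stayed 0, in comparisons where no member was called as reported. Recomputed were 39 member results, those with an unadjusted p under 0.05 in the limma fit, most of which were not called. Of 866 values for them, 837 kept their side of the threshold, 8 passed where the reported value did not, 21 missed, and 0 changed sign. All 21 misses fell on 2 reported calls: Cxcr3 in control tumors (held in 10 of 22 alternatives) and Ccl11 on average (13 of 22). Outside the 39, Cxcl12 passed on the BRAFi average without PD-L2 BRAFi tumor 2, and Ccl8 and Ccl9 did without PD-L2 vehicle tumor 3. Same-numbered tumors correlated at -0.371 to 0.242 after removing group means. These values cannot show whether the numbers pair the tumors, since tumors of different numbers were not set beside them. With the replicate block, 1 member passed in control tumors, 3 on the BRAFi average and 0 in the other comparisons, the same genes as reported. With the length trend removed, the members' median BRAFi change was 0.11 in control tumors and 0.08 on average, against -0.19 in both as reported. Causes were not tested. Without read counts, no limit of detection can be given for the low members.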
